A study of Mus musculus with 15 samples.

Results

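The proteins described here are core parts of the spliceosome: the Sm and LSm ring proteins, the proteins that mark the U1 and U2 small nuclear ribonucleoproteins (snRNPs), the subunits of SF3a and SF3b, and the PRPF proteins. They were chosen by name alone, as the protein-coding genes of GENCODE M21 whose symbol starts with Snrp, with Lsm and a number, with Sf3a or Sf3b and a number, or with Prpf and a number. The rule took 47 of 22028 protein-coding genes, out of 55536 genes in the count table that matched the annotation, and all 47 passed the filter on low counts. The other 3 genes that fit the name pattern, Snrp1c-ps1, Snrp1c-ps2 and Snrpert, are processed pseudogenes and were left out. By role the genes fell into the Sm ring (8 genes), the LSm2-8 ring of U6 (7), other LSm proteins (6), U1 proteins and associates (5), U2 proteins (2), SF3a (3), SF3b (6) and the PRPF proteins of the U4/U6.U5 tri-snRNP, the B complex, the Prp19 complex and the second splicing step (10).

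The spliceosome removes introns from pre-mRNA. U1 recognises the start of the intron, U2 with SF3a and SF3b grips the branch site, and the U4/U6.U5 tri-snRNP then joins and is rearranged by the PRPF proteins until the active centre around Prpf8 is formed. U1, U2, U4 and U5 each carry a ring of Sm proteins, U6 carries the related LSm2-8 ring, and T cells are known to change the splicing of many transcripts when they are activated.

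The RNA came from CD8+ T cells of OT-I mice, a C57BL/6J line whose transgenic T cell receptor recognises an ovalbumin peptide, bred on a Rag1-/- or Rag2-/- background, with animals of both sexes aged from weeks to months. OT-I cells were moved into C57BL6/J recipients. These then received antigen with a control antibody (Ag, 5 libraries) or antigen with the costimulatory agonist antibodies anti-OX40 and anti-41BB (Ag+Costim, 5 libraries). The transferred CD8+ cells were sorted by their donor markers from spleen and lymph nodes. The time was 4 days by the sample labels and slightly shorter by the study's methods. Naive OT-I cells from mice without transfer made the third group (Naive, 5 libraries). The comparisons ask which genes antigen alone changes and which genes costimulation changes beyond antigen. One T cell clone, a peptide antigen and hosts that keep their own T cells limit what these groups stand for.

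The 15 libraries held 4865952 to 25280667 counts, and Ag 3 was the shallowest, with 16.9% of its reads counted against 37.4% to 53.6% in the others. Summed CPM of the 7 CD8 T cell markers was 4203 to 5208 in Ag+Costim, 4045 to 7278 in the Ag libraries and 4838 to 7729 in Naive. Markers of 5 B cell genes summed to 361, 168 and 137 CPM in Ag 3, Ag 4 and Ag 1 and to 13.7 to 31.7 in the other 12 libraries, and the 4 erythroid markers summed to 705 CPM in Ag 3 and to 2.44 to 82.2 elsewhere. The summed CPM of 10 cycling cell markers was 679.7, 4441, 3289.97, 675 and 4622 in Ag replicates 1 to 5, 4240 to 5029 in Ag+Costim, and 310.1, 1235, 160.1, 143 and 3346 in Naive replicates 1 to 5. Ag 2, Ag 3, Ag 5 and Naive 5 were thus close to the Ag+Costim libraries in these markers, while Ag 1 and Ag 4 were close to Naive. In bulk RNA, fewer cells of a type and less RNA per cell cannot be told apart.

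Promoter stretches are shown for a gene of each pattern described below: Prpf19 and Prpf8, whose counts were higher in each Ag+Costim library than in each Ag library, Snrpe, a ring gene that did not separate those groups, and Prpf38b and Prpf39, which fell below Naive. Each runs 5′ to 3′ on the strand of the gene over 100 bases upstream of the RefSeq start (build GRCm38.p6), ending at the base before it for Prpf19, Prpf8 and Prpf38b, with 1 base between for Prpf39 and 11 for Snrpe, and none overlaps an exon of GENCODE M21. Capitals mark matches on either strand to the letters searched (CCGGAAG for ETS factors, CCAAT for the CCAAT box, GGGCGG for the GC box, CACGTG for the E-box).
Prpf19, chr19:10895131-10895230, plus strand: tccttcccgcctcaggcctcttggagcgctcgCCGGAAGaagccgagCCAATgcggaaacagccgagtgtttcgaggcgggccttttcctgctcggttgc
Prpf8, chr11:75486677-75486776, plus strand: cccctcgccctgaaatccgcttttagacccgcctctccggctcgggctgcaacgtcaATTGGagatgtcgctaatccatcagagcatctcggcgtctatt
Snrpe, chr1:133610292-133610391, minus strand: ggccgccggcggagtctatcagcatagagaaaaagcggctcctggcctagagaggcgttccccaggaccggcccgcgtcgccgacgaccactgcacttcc
Prpf38b, chr3:108911730-108911829, minus strand: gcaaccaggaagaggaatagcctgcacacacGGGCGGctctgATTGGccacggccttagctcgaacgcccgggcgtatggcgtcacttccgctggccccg
Prpf39, chr12:65036233-65036332, plus strand: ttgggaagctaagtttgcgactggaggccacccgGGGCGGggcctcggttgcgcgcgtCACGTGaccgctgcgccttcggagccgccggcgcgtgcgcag

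Prpf19 holds the ETS letters 68 bases before its start and a CCAAT box 53 bases before it, and Prpf8 holds a CCAAT box, read on the other strand, 43 bases before its start. Prpf39 holds an E-box 43 bases before its start. RefSeq promoters were matched for 38 of the 47 genes. Over the 250 bases before the start, the ETS letters occurred in 12 of these 38 (31.6%) and in 7.05% of all 27025 promoters, and the GC box in 21 (55.3%) and in 32.9%. The CCAAT box occurred in 16 of 38 against 34.5% of all promoters, the E-box in 3 against 6.05%, TATAAA in 2 against 13.0%, and the NRF1 motif in 0 against 0.781%. Among the genes whose Ag+Costim values all lay above the Ag values, 7 had a promoter, and 6 of these (Prpf19, Sf3a1, Sf3a2, Sf3a3, Sf3b2 and Sf3b3, but not Prpf8) held the ETS letters. These genes were picked from these same data, and edgeR called 0 of the 47 genes in Ag+Costim vs Ag after adjustment. The 27025 promoters were not limited to genes expressed here. A match of letters is a description and not a binding site, and a link of the ETS letters to costimulation was not tested.

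Against naive cells, costimulated cells carried more message for most of the spliceosome core. In Ag+Costim vs Naive, 30 of the 47 genes were called higher (21% of all 17366 genes tested were) and 4 were called lower (23.6%), at an adjusted p under 0.05 in edgeR. The median log2 fold change of the 47 was 0.62, beside -0.08 over all genes tested, and 38 of 47 fold changes were above 0 (46.7% of all genes). The groups did not overlap for 31 genes that were higher in every Ag+Costim library (22.7% of all genes) and 5 that were lower in every one (22.3%). The genes called lower were Prpf40b, Prpf39, Prpf38b and Prpf4b. At an unadjusted p under 0.05 the counts were 33 higher (26.1% of all genes) and 5 lower (29.6%). All Naive libraries were run on lane 3, all Ag libraries on lane 2, and Ag+Costim had 3 libraries on lane 2 and 2 on lane 3. Against Naive within lane 3, 30 genes were called higher (14.1% of all genes) and 3 lower (20.6%), whereas a lane term over all 15 libraries left 0 higher (1.49%) and 1 lower (3.94%). Single libraries mattered too, since 10 genes were called higher without Naive 1 (8.04%) or without Naive 4 (7.84%), and 16 to 24 without 1 of the Ag+Costim libraries (12.5% to 17.5%). The markers of cycling cells moved with the count, with 8 of 10 called higher in Ag+Costim vs Naive, and their part in it was not tested.

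Antigen alone gave no gene called higher and widely spread libraries. In Ag vs Naive, 0 of 47 genes were called higher (3.05% of all genes) and 2, Prpf40b and Prpf4b, were called lower (3.66%). Neither was called with a lane term, which called 0 of all genes here, with the 10 libraries of this comparison alone, without Naive 1 or without Naive 4. No lane held both groups. The median log2 fold change was 0.24, beside 0.08 over all genes, and 29 of 47 were above 0 (55.8%). At an unadjusted p under 0.05, 15 were higher (15.2%) and 6 lower (13.5%), and DESeq2 called 0 higher (2.27%). The libraries overlapped for all genes in the higher direction (1.76% of all genes did not) and for all but Prpf40b in the lower (2.09%). Without both Ag 3 and Naive 5, 13 were called higher (15.2%) and 4 lower (7.69%).

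Costimulation beyond antigen gave positive fold changes for most of the genes, without a call after adjustment. Comparing Ag+Costim with Ag, 0 of 47 genes were called in either direction by edgeR, where 0.0288% of all genes were called higher and 0.00576% lower. At an unadjusted p under 0.05, 13 were higher (7.28% of all genes) and 1 lower (19.5%). The median log2 fold change was 0.26, beside -0.10 over all genes, and 41 of 47 were above 0 (42.1%). All Ag+Costim libraries lay above all Ag libraries for 8 genes (4.23%), among them Sf3a1, Sf3a2, Sf3a3, Sf3b2, Sf3b3, Prpf19 and Prpf8, and below for 0 (2.1%). DESeq2 called 11 higher (1.67% of the genes it tested) and Prpf40b lower (9.77%), and edgeR without both Ag 3 and Naive 5 called 7 higher (2.88%) and Lsm10 lower (2.84%). The DESeq2 shares, here and above, are over 48768 genes, many of them low-count genes that the edgeR filter removed. They are therefore not on the same footing as the edgeR shares. Within lane 2 edgeR called 0 of all genes in either direction. Single libraries moved the counts, since 12 genes were called higher without Ag 2 (5.33% of all genes), 10 without Ag 5 (4.17%), and 1 without Ag 3 (0.251%) or without Naive 5 (0.167%). The median log2 fold change moved too, to 0.52 without Ag 2 and 0.45 without Ag 5, and to 0.12 without Ag 1 and 0.15 without Ag 4.

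**Figure D1:**
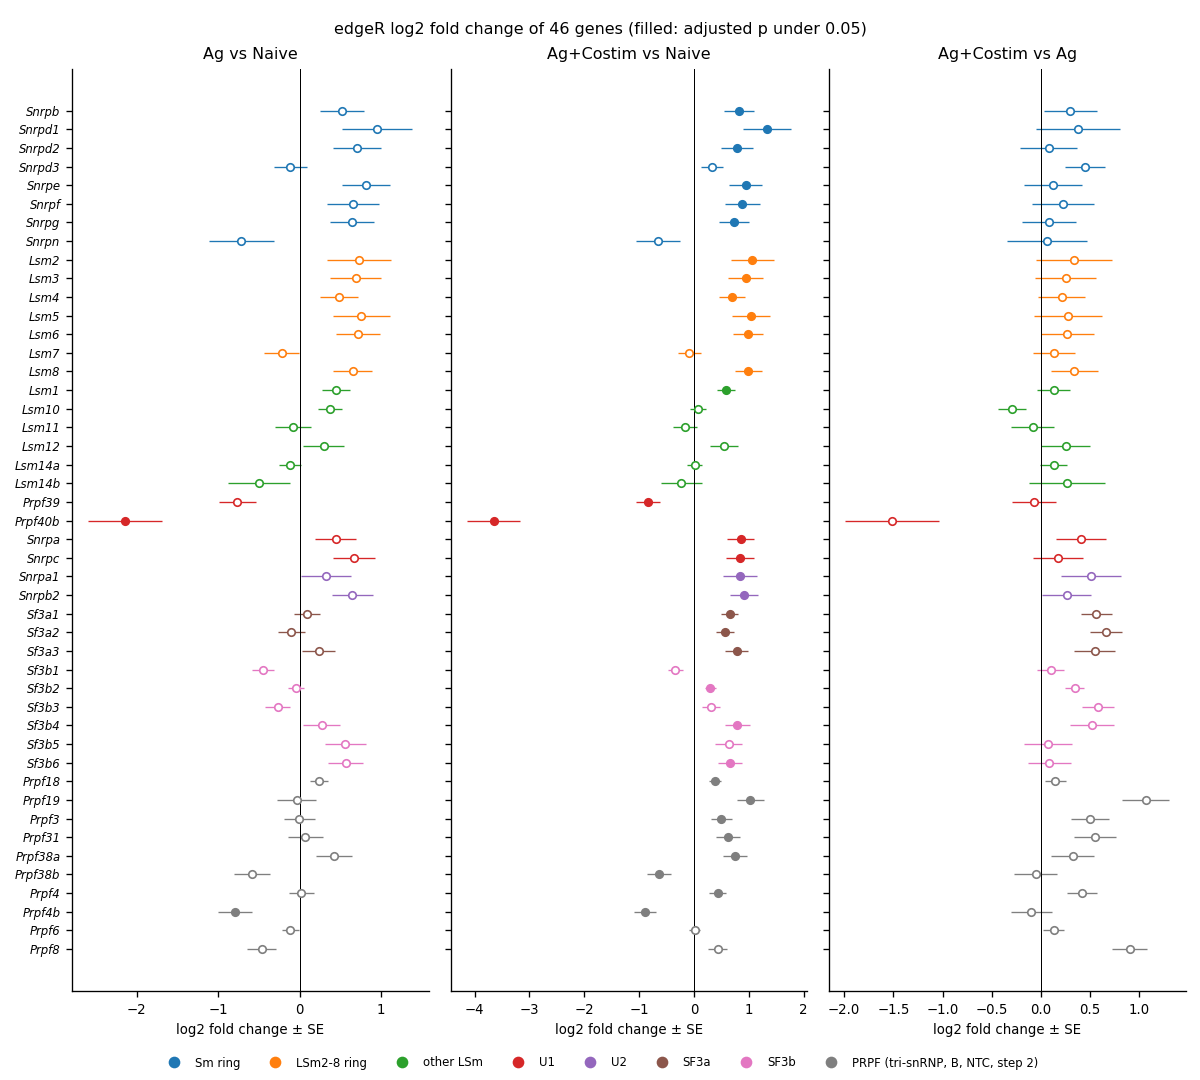
edgeR log2 fold change (horizontal axis, with bars of 1 SE) of 46 of the genes (vertical axis, grouped and coloured by sub-complex) in the 3 comparisons, each panel on its own scale; filled points have an adjusted p under 0.05. Filled points are 2 in Ag vs Naive, 33 in Ag+Costim vs Naive (29 higher and 4 lower) and 0 in Ag+Costim vs Ag.

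Of the 8 Sm ring genes, whose proteins build the common core of U1, U2, U4 and U5, 6 rose in Ag+Costim vs Naive, and the ring differed widely among the Ag libraries. Here and below, CPM values are scaled by TMM and given for replicates 1 to 5. Snrpb, the SmB protein, was at 265, 356, 306, 256 and 437 CPM in Naive, 259, 644, 432, 252 and 739 in the Ag libraries and 566, 557, 531, 635 and 570.0 in Ag+Costim. Snrpd1 (SmD1) was at 51.04, 90.8, 49.6, 49.9 and 139 CPM in Naive, 55.6, 229, 144, 50.6 and 258 in the Ag libraries and 185, 187, 175, 219 and 191 in Ag+Costim. Snrpe (SmE) was at 122, 183, 119, 117 and 239.8 CPM in Naive, 156, 365, 239, 153 and 459.6 in the Ag libraries and 288, 291, 287, 323 and 309 in Ag+Costim. For all of these Ag 2 and Ag 5 exceeded the Ag+Costim values, Ag 1 and Ag 4 sat within or near the Naive range, and Ag 3 and Naive 5 lay between.

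Snrpd1 rose in Ag+Costim vs Naive by a log2 fold change of 1.33 ± 0.43 (SE, adjusted p = 0.0264), Snrpe by 0.94 ± 0.30 (0.0236) and Snrpb by 0.82 ± 0.27 (0.0281). Snrpd2, Snrpf and Snrpg also rose, with log2 fold changes of 0.78, 0.88 and 0.73, so that 6 of the 8 ring genes were called. The exceptions were Snrpd3 (SmD3) and Snrpn. Snrpd3 was at 172, 187, 189, 182 and 187 CPM in Naive, 111, 244, 172, 101 and 218 in the Ag libraries and 227, 218, 226, 263 and 221 in Ag+Costim, so the Ag+Costim libraries lay above all Naive ones, with a log2 fold change of 0.33 ± 0.20 and an adjusted p of 0.177. Snrpn, the imprinted relative of Snrpb that is best known from brain, was at 3.07, 3.47, 3.47, 4.099 and 4.19 CPM in Naive, 1.46, 1.03, 5.66, 1.15 and 2.32 in the Ag libraries and 2.39, 3.17, 1.76, 1.88 and 2.43 in Ag+Costim, with a log2 fold change of -0.65 ± 0.40 (adjusted p = 0.179). Its 15 to 93 counts per library make it one of the lowest genes here, and reads shared between Snrpn and Snrpb may have been split between them. Between Ag+Costim and Ag the ring genes had log2 fold changes of 0.06 to 0.45 (median 0.18), and the groups overlapped for all 8.

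The mean log2(CPM + 1) of the Sm ring was 6.01, 7.18, 6.87, 5.90 and 7.43 in Ag replicates 1 to 5, against 6.94 to 7.15 in Ag+Costim and 6.11, 6.53, 6.12, 6.09 and 6.83 in Naive replicates 1 to 5. The libraries low in the ring, Ag 1, Ag 4 and Naive 1, 3 and 4, were also the 5 lowest in the cycling cell markers given above. The part of those markers in the ring values was not tested.

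**Figure D2:**
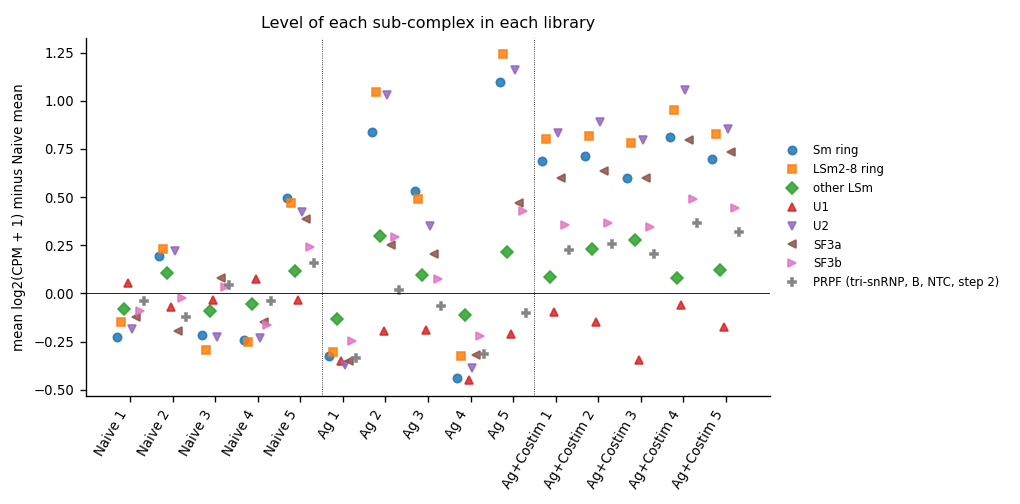
Mean log2(CPM + 1) of each sub-complex (colours and shapes) in each of the 15 libraries, minus the mean of the 5 Naive libraries. Points of the Sm ring, LSm2-8 ring and U2 proteins spread from below to above the Ag+Costim points within Ag (Sm ring 5.90 to 7.43), whereas SF3a and the PRPF group reach their highest points in Ag+Costim.

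The LSm2-8 ring, which holds the end of U6 snRNA, rose in 6 of its 7 subunits in Ag+Costim vs Naive. Lsm2 was at 39.6, 58.5, 39.1, 42.7 and 83.3 CPM in Naive, 33.2, 132, 88.6, 30.3 and 152 in the Ag libraries and 103, 107, 103, 124 and 113 in Ag+Costim. Lsm8, the subunit that sets the nuclear ring apart from the cytoplasmic one, was at 63.7, 75.7, 54.3, 52.03 and 86.3 CPM in Naive, 54.8, 147, 103, 70.7 and 145 in the Ag libraries and 126, 133, 132, 143 and 127 in Ag+Costim. Lsm5 was at 33.5, 52.5, 30.4, 27.8 and 66.7 CPM in Naive, 34.4, 98.7, 69.5, 31.7 and 122 in the Ag libraries and 83.5, 89.00, 82.9, 90.6 and 85.1 in Ag+Costim. For all 3 the Ag+Costim libraries lay above all Naive ones, and the Ag libraries spanned both. The log2 fold changes in Ag+Costim vs Naive were 1.07 ± 0.39 for Lsm2 (adjusted p = 0.0407), 1.03 ± 0.35 for Lsm5 (0.0297) and 0.99 ± 0.24 for Lsm8 (0.00946). Lsm3, Lsm4 and Lsm6 rose as well, by 0.94, 0.69 and 0.98. Lsm7 was the 1 ring subunit that was not called, at 55.6 ± 7.36 CPM in Naive and 52.4 ± 3.82 in Ag+Costim (SD, n = 5) and a log2 fold change of -0.08 ± 0.21.

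Among the other LSm proteins, 1 of 6 was called. Lsm1, which replaces Lsm8 in the cytoplasmic ring that promotes mRNA decapping, was at 51.2, 68.1, 65.9, 55.4 and 69.9 CPM in Naive, 64.2, 96.9, 78.4, 61.8 and 122 in the Ag libraries and 94.7, 95.7, 89.5, 96.2 and 87.9 in Ag+Costim, and rose by 0.58 ± 0.17 in Ag+Costim vs Naive (adjusted p = 0.0177). Lsm11, which with Lsm10 replaces SmD1 and SmD2 in the U7 snRNP of histone pre-mRNA processing, was at 15.4, 20.7, 16.4, 21.6 and 18.5 CPM in Naive, 12.1, 24.9, 20.9, 10.3 and 19.5 in the Ag libraries and 13.98, 20.2, 14.2, 16.7 and 17.4 in Ag+Costim, and no comparison called it (adjusted p = 0.822, 0.824 and 0.536 for Ag+Costim against Ag, Ag against Naive and Ag+Costim against Naive). Lsm10 was at 29.5, 34.5, 34.2, 30.8 and 26.3 CPM in Naive, 42.7, 46.4, 26.1, 40.4 and 45.1 in the Ag libraries and 36.4, 33.7, 34.6, 29.7 and 29.6 in Ag+Costim. It had 1 of the 6 negative fold changes in Ag+Costim vs Ag, -0.29 ± 0.15 (adjusted p = 0.207), and Ag 3 was its lowest library. Lsm14b, a paralog of the P-body protein Lsm14a, was at 5.32, 3.15, 1.86, 3.196 and 1.99 CPM in Naive, 2.32, 1.86, 3.05, 2.94 and 0.939 in the Ag libraries and 2.39, 2.601, 4.36, 1.62 and 2.22 in Ag+Costim, all overlapping. Lsm12 and Lsm14a had log2 fold changes of 0.55 ± 0.25 and 0.01 ± 0.14 in Ag+Costim vs Naive and were not called.

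The U1 proteins and associates went both ways in Ag+Costim vs Naive, with Snrpa and Snrpc called higher and Prpf39 and Prpf40b called lower. Snrpa, a U1 RNA-binding protein, was at 61.6, 70.7, 61.8, 66.2 and 104 CPM in Naive, 58.5, 130.3, 96.7, 55.7 and 153 in the Ag libraries and 129, 129, 123, 141 and 133 in Ag+Costim, and rose by 0.85 ± 0.25 in Ag+Costim vs Naive (adjusted p = 0.0195). Snrpc, which helps U1 read the start of the intron, rose by 0.84 ± 0.26 (0.0218), with reads that its processed pseudogenes may share.

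Prpf40b, a U1-associated protein, had by far the lowest counts of these and fell. It was at 11.5, 5.84, 7.497, 11.1 and 3.19 CPM in Naive, 3.100, 0.965, 1.96, 2.15 and 0.751 in the Ag libraries and 0.795, 0.6502, 0.211, 0.779 and 0.625 in Ag+Costim, so Naive lay above all other libraries. The log2 fold change was -2.14 ± 0.45 in Ag vs Naive (adjusted p = 0.0174), -3.65 ± 0.49 in Ag+Costim vs Naive (0.00105) and -1.51 ± 0.47 in Ag+Costim vs Ag (0.0857). In Ag vs Naive the adjusted p was 0.0578 without Naive 1, 0.0569 without Naive 4 and 0.626 with a lane term, and in Ag+Costim vs Naive the call held in every alternative run. Raw counts were 48 to 201 in Naive, 9 to 36 in the Ag libraries and 3 to 12 in Ag+Costim, and at least 92.9% of them in each library were on transcripts annotated as retaining an intron rather than on protein-coding ones.

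Prpf39, another U1-associated protein, was at 152, 126, 156, 199 and 99.7 CPM in Naive, 111, 61.1, 82.5, 121 and 55.2 in the Ag libraries and 89.9, 90.1, 67.1, 85.97 and 76.04 in Ag+Costim. It fell by 0.84 in log2 fold change (SE 0.23, adjusted p = 0.0136) against Naive in Ag+Costim, and within Ag the libraries highest in the Sm ring, Ag 2 and Ag 5, were the lowest in Prpf39. These values sum all Prpf39 transcripts. The protein-coding ones took 61.2% ± 17.4 of the counts in Naive and 80.7% ± 6.60 in Ag+Costim (SD), and their own change in level was not tested. Of the U2 proteins, Snrpa1 was at 95.8, 115, 89.5, 88.5 and 132 CPM in Naive, 61.7, 195, 112, 63.3 and 219.6 in the Ag libraries and 174, 187, 164, 218 and 184 in Ag+Costim. Snrpa1 and its binding partner Snrpb2 rose by 0.83 ± 0.31 (adjusted p = 0.042) and 0.91 ± 0.25 (0.0146) in Ag+Costim vs Naive.

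**Figure D3:**
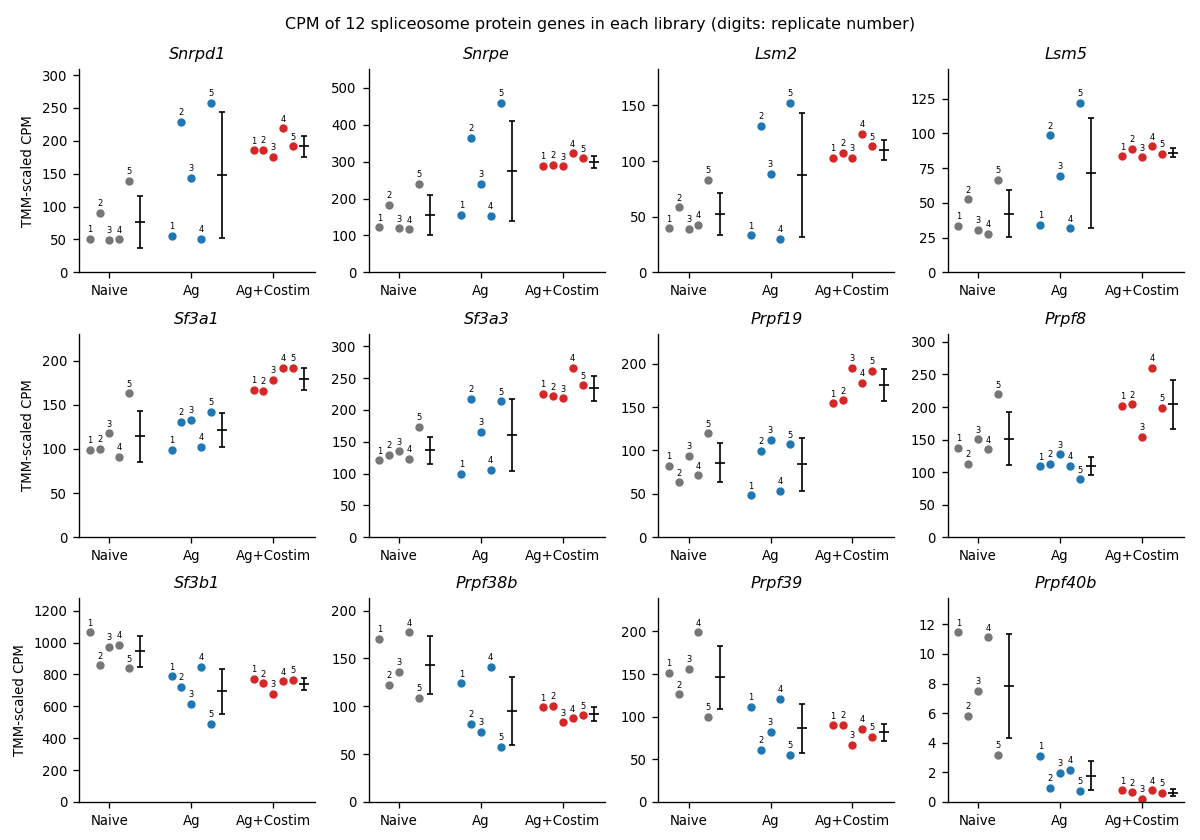
CPM scaled by TMM (vertical axis, linear from 0) of 12 of the genes in the Naive, Ag and Ag+Costim libraries, with the replicate number above each point and the mean ± SD of the 5 libraries beside it. Snrpd1, Snrpe, Lsm2 and Lsm5 split the Ag libraries into high (2 and 5) and low (1 and 4) ones, and Sf3a1, Sf3a3, Prpf19 and Prpf8 place each Ag+Costim library above each Ag library. Sf3b1, Prpf38b, Prpf39 and Prpf40b, counted over all their transcripts, are highest in Naive.

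SF3a, the trimer that joins U2 to the branch site, separated Ag+Costim from both other groups on CPM scaled by TMM, in places narrowly. Sf3a1 was at 99.2, 100.2, 118, 91.3 and 163 CPM in Naive, 98.9, 131, 133, 102 and 142 in the Ag libraries and 167, 166, 178, 192 and 192 in Ag+Costim. Sf3a2 was at 57.4, 45.3, 66.1, 57.5 and 70.4 CPM in Naive, 42.9, 52.6, 62.1, 41.7 and 77.8 in the Ag libraries and 82.8, 92.01, 80.3, 92.1 and 90.2 in Ag+Costim. Sf3a3 was at 121, 129, 135, 123 and 174 CPM in Naive, 99.7, 217, 166, 106 and 213 in the Ag libraries and 226, 221, 218, 267 and 239 in Ag+Costim. For the 3 subunits the lowest Ag+Costim library was above the highest Ag and the highest Naive library. The gap was small for Sf3a1 against Naive 5 (165.8 and 163.2 CPM) and for Sf3a3 against Ag 2 (218.1 and 216.9). The log2 fold changes in Ag+Costim vs Ag were 0.56 ± 0.16, 0.66 ± 0.17 and 0.55 ± 0.21, with edgeR adjusted p of 0.0818, 0.0807 and 0.118. Against Naive all 3 rose in Ag+Costim, by 0.65, 0.56 and 0.78, while Ag vs Naive gave 0.09, -0.10 and 0.23, with adjusted p of 0.727, 0.701 and 0.439.

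Counted over all transcripts of each gene, the subunits of SF3b did not move as a unit. Sf3b1, the large subunit that clamps the branch-site helix, was at 1064, 857, 975, 986 and 838 CPM in Naive, 788, 721, 617, 847 and 491 in the Ag libraries and 771, 744, 676, 756 and 764 in Ag+Costim, with Naive above every Ag+Costim library. Its log2 fold change was -0.35 ± 0.14 in Ag+Costim vs Naive (adjusted p = 0.0511) and -0.45 ± 0.14 in Ag vs Naive (0.0624). These values sum all Sf3b1 transcripts. The share on transcripts annotated as retaining an intron, given below, was smaller in every Ag+Costim than in every Naive library. The change of the remaining Sf3b1 message was not tested. Sf3b3, a scaffold subunit, was at 308, 278, 407, 335 and 409 CPM in Naive, 209, 300.2, 359.99, 244 and 328 in the Ag libraries and 383, 409, 399, 493 and 469.8 in Ag+Costim, a difference of 0.58 ± 0.16 from Ag (adjusted p = 0.0807) with no overlap, and 0.31 ± 0.16 from Naive (0.119). Sf3b6, the small subunit that touches the branch-site adenosine, was at 153, 203, 155, 141 and 232 CPM in Naive, 181, 330.1, 229.8, 172 and 394 in the Ag libraries and 279, 282, 262, 291 and 274 in Ag+Costim, with Ag 2 and Ag 5 on top as for the ring proteins. Sf3b6, Sf3b4 and Sf3b2 rose in Ag+Costim vs Naive, by 0.65 ± 0.22, 0.79 ± 0.23 and 0.30 ± 0.10, and Sf3b5 was at 0.63 ± 0.25 with an adjusted p of 0.0502.

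The PRPF proteins held the largest positive fold changes of Ag+Costim vs Ag. Prpf19, the ubiquitin ligase that names the Prp19 complex, was at 82.4, 63.2, 93.8, 71.1 and 119.8 CPM in Naive, 48.4, 99.7, 112, 53.3 and 107 in the Ag libraries and 155, 158, 196, 178 and 192 in Ag+Costim, a log2 fold change of 1.06 ± 0.24 (adjusted p = 0.0807). Prpf8, the scaffold of the active centre, was at 138, 113, 150.5, 135 and 219.6 CPM in Naive, 109, 112, 127, 109 and 89.02 in the Ag libraries and 202, 204, 154, 261 and 199 in Ag+Costim, a difference of 0.90 ± 0.18 from Ag (0.0807). Both lay above every Ag library in every Ag+Costim library. Against Naive, Prpf19 rose in Ag+Costim by 1.03 ± 0.24 (0.00828), and Prpf8 was at 0.43 ± 0.18 (0.0569), where Naive 5 overlapped.

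The proteins of the tri-snRNP differed from each other. Prpf31, which holds U4 and U6 together with U5, was at 76.8, 90.2, 89.4, 85.7 and 99.97 CPM in Naive, 63.03, 118, 90.8, 52.2 and 139 in the Ag libraries and 126, 129, 130.02, 158 and 136 in Ag+Costim, and rose by 0.62 ± 0.22 in Ag+Costim vs Naive (adjusted p = 0.0331). Prpf6, the bridge between U5 and U4/U6, was at 114, 101, 133, 118 and 118 CPM in Naive, 114, 91.4, 97.8, 118 and 119 in the Ag libraries and 112, 112, 119, 123 and 125 in Ag+Costim, with log2 fold changes of 0.13 ± 0.10, -0.11 ± 0.10 and 0.01 ± 0.10 for Ag+Costim against Ag, Ag against Naive and Ag+Costim against Naive. The 3 groups overlapped for Prpf6 throughout. Prpf3 and Prpf4 of U4/U6, Prpf38a of the B complex and Prpf18 of the second step rose in Ag+Costim vs Naive by 0.50, 0.43, 0.75 and 0.38, with adjusted p of 0.0488, 0.0357, 0.0189 and 0.0168.

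A pair of PRPF genes was lower than in Naive. Prpf4b, a kinase that phosphorylates spliceosome proteins, was at 185, 163, 143, 190.1 and 116 CPM in Naive, 124, 96.3, 78.6, 113 and 48.7 in the Ag libraries and 84.1, 90.2, 81.6, 86.6 and 87.3 in Ag+Costim, and fell in Ag (log2 fold change -0.79 ± 0.21, adjusted p = 0.0358) and in Ag+Costim (-0.89 ± 0.21, 0.00787). Prpf38b was at 171, 123, 136, 177 and 109 CPM in Naive, 124, 81.9, 72.96, 141 and 57.5 in the Ag libraries and 98.8, 101, 83.4, 87.5 and 90.6 in Ag+Costim, and fell by 0.63 in Ag+Costim in log2 fold change (SE 0.22, adjusted p = 0.0324). This fall is in the sum over all Prpf38b transcripts. The protein-coding one took 40.7% ± 19.2 of the counts in Naive and 62.1% ± 12.5 in Ag+Costim (SD), and its own change in level was not tested. The Ag vs Naive call of Prpf4b was lost without any 1 library other than Ag 1, Ag 4, Ag 5 or Naive 5 (adjusted p up to 0.104). That of Prpf38b in Ag+Costim vs Naive was lost without Ag 2, Naive 1, Naive 3, Naive 4 or any 1 Ag+Costim library (up to 0.140). Both were below every Naive library in every Ag+Costim library, and in Ag their highest values were in Ag 1 and Ag 4. Ag+Costim vs Ag gave -0.10 ± 0.21 for Prpf4b and -0.05 ± 0.22 for Prpf38b, with overlapping libraries.

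Ratios within pairs of related genes were tested library by library, as log2((CPM + 0.5)/(CPM + 0.5)), with an exact two-sided permutation test of 5 against 5 and adjustment over 12 tests, of which 9, on 3 pairs, are described. The smallest p this test can give is 0.00794. Snrpn to Snrpb fell by 1.42 in Ag+Costim vs Naive (exact permutation, adjusted p = 0.0238), from -6.26 ± 0.29 to -7.68 ± 0.31 (SD, n = 5), and its change was -1.17 for Ag vs Naive (0.0794) and -0.24 for Ag+Costim vs Ag (0.684). Lsm1 to Lsm8, the subunits that tell the cytoplasmic from the nuclear ring, fell by 0.43 in Ag+Costim vs Naive (exact permutation, adjusted p = 0.0238), from -0.08 ± 0.26 to -0.51 ± 0.06, and its change was -0.16 for Ag vs Naive (0.607) and -0.26 for Ag+Costim vs Ag (0.136). Lsm14b to Lsm14a gave adjusted p of 0.754, 0.635 and 0.684 for Ag+Costim against Ag, Ag against Naive and Ag+Costim against Naive by the same exact permutation test. Within 1 lane the adjusted p rose to 0.190 for both called differences, at 2 against 5 libraries.

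**Figure D4:**
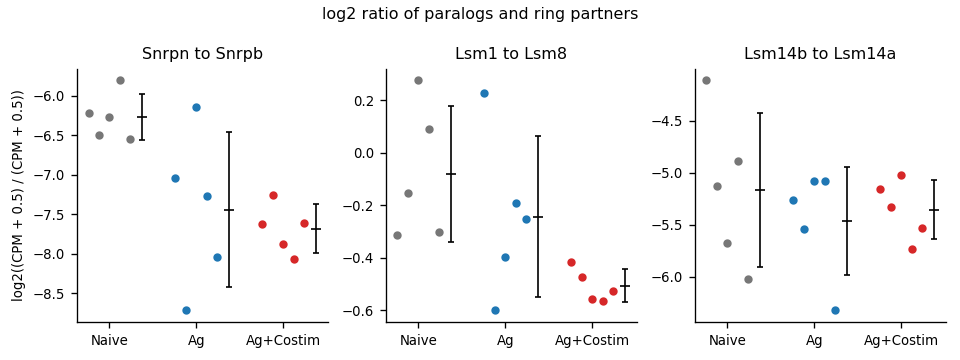
log2 ratio of CPM + 0.5 (vertical axis, a separate scale for each panel) for 3 pairs of paralogs or ring partners in each library, with the mean ± SD of 5 libraries beside each group. Snrpn to Snrpb is lower in Ag+Costim (mean -7.68) than in Naive (-6.26), whereas Lsm14b to Lsm14a overlaps in all 3 groups.

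The transcript counts show which kinds of message made up these totals. Of all counts on the 47 genes, the percent on transcripts annotated as retaining an intron was 15.9, 10.01, 11.2, 13.8 and 5.73 in Naive replicates 1 to 5, 10.6, 3.08, 5.36, 10.8 and 1.59 in the Ag libraries and 3.28, 3.33, 2.61, 1.92 and 2.67 in Ag+Costim. Every Ag+Costim library was below every Naive library, and Ag 1 and Ag 4 were in the Naive range. Over all annotated genes the same percent was 7.98, 5.84, 5.93, 8.24 and 3.76 in Naive, 6.08, 3.08, 5.02, 5.79 and 2.48 in the Ag libraries and 3.53, 3.42, 3.06, 2.69 and 3.03 in Ag+Costim, so the fall was not confined to the spliceosome genes. Such pooled percents weigh each gene by its counts, and Sf3b1 had the most counts of the 47 genes in every Naive library. The median share per gene was lower for the spliceosome genes than for all genes in every library. In Naive replicates 1 to 5 it was 5.66, 4.73, 3.44, 5.24 and 1.79 percent, beside 6.75, 5.26, 4.15, 6.59 and 2.94 over all genes. Protein-coding transcripts took 83.9% ± 4.88 of the counts of the 47 genes in Naive, 90.6% ± 4.92 in the Ag libraries and 94.5% ± 0.55 in Ag+Costim (SD, n = 5).

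Sf3b1 had the largest mean retained-intron share in Naive of the 47 genes after Prpf40b. It was 46.5, 38.1, 39.8, 40.4 and 29.3 percent in Naive, 35.9, 17.1, 16.2, 38.7 and 4.72 in the Ag libraries and 15.3, 15.9, 12.96, 7.76 and 11.5 in Ag+Costim, nearly all of it on the transcript Sf3b1-203. Among 34 of the 47 genes with a protein-coding and a retained-intron transcript and a mean of at least 50 counts, 11 had a lower share in every Ag+Costim than in every Naive library (21.8% of 6067 such genes did), namely Lsm1, Lsm3, Prpf31, Prpf38b, Sf3b1, Snrpa, Snrpa1, Snrpb, Snrpc, Snrpd2 and Snrpd3. A higher share in every Ag+Costim library was found for 0 (0.511%). In Ag+Costim vs Ag the share of 1 gene, Prpf8, was lower without overlap (3.12%) and 0 were higher (0.0659%), and in Ag vs Naive the counts were 0 lower (0.659%) and 0 higher (0.214%). The mean share was below Naive in Ag+Costim for 32 of the 34 (86.7% of the 6067 genes), with a median difference of -2.45 percentage points beside -2.23 over all 6067 genes.

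Tested as transcript usage within each gene, 0 of the 38 genes with at least 2 testable transcripts were called by edgeR in Ag+Costim vs Ag (0.947% of 7501 genes were), in Ag vs Naive (0.640%) or in Ag+Costim vs Naive (1.23%). A call needed a gene-level adjusted p under 0.05 and a transcript past the same threshold whose mean share changed by at least 0.1. At an unadjusted gene p under 0.05 the counts were 6 (9.45% of the 7501 genes), 3 (6.25%) and 12 (15.7%), and limma called 0 (0.587%), 0 (1.81%) and 6 (9.09%). Those last 6 were Lsm4, Lsm5, Lsm7, Prpf40b, Sf3b1 and Snrpa1. The share of Sf3b1-203 changed by -0.26 in Ag+Costim vs Naive, with an edgeR gene-level adjusted p of 0.124. Snrpg had gene-level adjusted p of 0.0154 in Ag vs Naive and 0.0235 in Ag+Costim vs Ag, through its processed transcript Snrpg-204, whose share changed by -0.04 and 0.03.

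**Figure D5:**
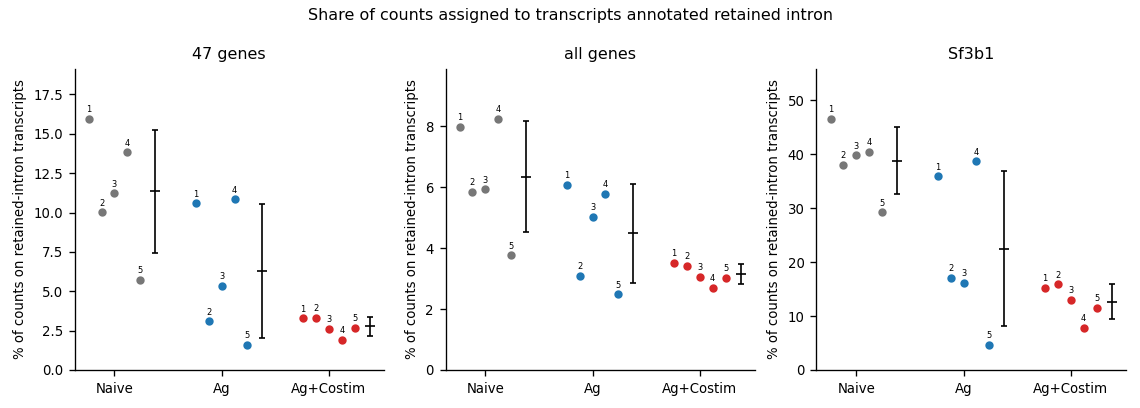
Percent of counts assigned to transcripts annotated as retaining an intron (vertical axis, linear from 0) in each library for the 47 genes together, for all annotated genes and for Sf3b1, with replicate numbers and the mean ± SD of 5 libraries. The Ag+Costim libraries lie below the Naive ones in every panel (7.76 to 15.9 against 29.3 to 46.5 percent for Sf3b1), and Ag 1 and Ag 4 lie within the Naive range.

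The levels per length, in TPM (transcript counts divided by length and scaled to a fixed total), show how unequal the messages for the parts were. They are RNA levels summed over all transcripts of a gene, including those annotated as retaining an intron, and protein was not measured here. In Naive the most abundant messages were Snrpe at 479 ± 152 TPM (SD, n = 5), Snrpb at 449 ± 86.3, Sf3b1 at 348 ± 61.8 and Lsm4 at 320.2 ± 50.5. Neighbours in this order overlapped within 1 SD. In Ag+Costim the order was Snrpe at 845 ± 38.1 TPM, Snrpb at 720.3 ± 44.9 and Lsm4 at 489 ± 24.3, each more than the SDs apart. Next came Snrpg, Lsm3, Snrpd1 and Sf3b6 with means of 346 to 365 TPM, and Sf3b1 at 208 ± 7.53 was lower. The core PRPF scaffold Prpf8 was at 33.02 ± 8.34 TPM in Naive, 21.2 ± 4.03 in the Ag libraries and 40.3 ± 7.26 in Ag+Costim. At the lower end were Prpf40b at 0.224 ± 0.0853 TPM, Lsm14b at 1.53 ± 0.598 and Snrpn at 1.68 ± 0.467 in Ag+Costim.

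Lists of partner genes of the same machines, chosen by role, were counted in the same fit. Of 19 other snRNP and associated proteins, 12 were called higher and 2 lower in Ag+Costim vs Naive (21% and 23.6% of all genes), with a median log2 fold change of 0.57 beside -0.08 over all genes. These included Phf5a, a further SF3b subunit, at 1.02 ± 0.31 (SE, adjusted p = 0.0207), Snrnp40 of U5 at 1.01 ± 0.28 (0.0148) and Eftud2, the U5 GTPase, at 0.87 ± 0.25 (0.0178). Snrnp25 and Snrnp35 were also called higher, at 1.26 ± 0.32 (0.0107) and 0.87 ± 0.29 (0.0282). Ddx23, a U5 helicase, and Snrnp48 fell, by 0.94 and 1.09 in log2 fold change. Of 19 proteins of the Prp19 complex and the catalytic steps, 9 were called higher and 1 lower (Cdc40), with a median of 0.31. Of 17 genes of snRNP assembly, 9 were higher, among them Smn1 at 0.76 ± 0.21 (0.0156) and the Sm methylase Prmt5 at 0.90 ± 0.26 (0.0180), and Tgs1, the cap methylase, was lower, with a median of 0.55. Of 8 decapping partners of the Lsm1-7 ring, Dcp2 was higher and Dcp1a lower, both fewer than the share of all genes, and the median was -0.17. In Ag+Costim vs Ag 0 genes of these 4 lists were called by edgeR (20 higher and 1 lower at an unadjusted p under 0.05, where 7.28% and 19.5% of all genes were). Ag vs Naive gave 1 higher (Gemin8, 3.05% of all genes) and 2 lower (Snrnp48 and Cdc40, 3.66%).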

How the data were processed

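RNA of 15 sorted OT-I CD8+ T cell samples was made into cDNA with a poly(A)-primed full-length kit and sequenced as single-end reads. Per the submitters' processing notes, the authors aligned reads to mm10 with HISAT2 2.1.0, handled them with SAMtools 1.9 and obtained the deposited gene and transcript counts, as whole numbers that were not normalized, through StringTie 2.1.0. Such counts are estimates from coverage. The lane table gives sequenced read counts as deposited. A deposited FPKM table was not used, since its columns for Ag 1 and Naive 5 hold identical values. The count columns of these 2 libraries differ, and the reason for the match in the FPKM table was not tested.

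Entries were matched to GENCODE M21, and entries named by a number (0.0818% of counts) were left out. edgeR 4.0.16 in R 4.3.3 (filterByExpr, TMM, robust quasi-likelihood, 3 groups, two-sided, Benjamini-Hochberg over 17366 genes, threshold 0.05) gave the main tests, diffSpliceDGE the transcript usage, and DESeq2 1.42.0 and limma 3.58.1 alternatives. The scripts were tested on simulated data. The SE of an edgeR log2 fold change was its absolute value divided by the square root of F from the quasi-likelihood test. TPM was computed from transcript counts and lengths. Of 28 genes given per library, 24 were preset and 4 were among the 3 highest or lowest fold changes of a comparison. The values of 1 of the 47 genes, which all fits and counts include, are not reported here. Genes and lists were chosen with earlier results of these data known. Alternatives were other scalings, no filter, a lane term, a replicate block and left-out libraries. The study's legends call each library an individual biological replicate. The smallest library puts 3 counts at 0.617 CPM.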

Additional observations from a re-analysis of the deposited data

Results flagged for a closer look

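The value of 1 library stood far from the other 4 of its group for 5 of the 123 groups of 5 libraries examined with Dixon's gap ratio (critical value 0.71), and chance alone flags about 5% of such groups. In Ag+Costim, library 4 had 263.5 CPM of Snrpd3 (others 218.1 to 227.0) and a mean log2(CPM + 1) of 7.107 for the LSm2-8 ring (others 6.936 to 6.978). In Naive, library 5 had 104 CPM of Snrpa (others 61.61 to 70.66) and 173.6 CPM of Sf3a3 (others 121.0 to 135.1), and it also had the highest summed cycling cell markers of its group (3346 CPM against 143 to 1235). In Ag, library 3, the shallowest, had 5.662 CPM of Snrpn (others 1.034 to 2.316). The part of depth and cycling markers in these values was not tested.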

How the results depend on the processing

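The counts of called genes moved with the processing more than their directions did, and the cause was not tested unless named. For Ag+Costim vs Ag, DESeq2 called 11 genes higher and 1 lower, and leaving out both Ag 3 and Naive 5 gave 7 and 1, against 0 and 0 in edgeR. In Ag vs Naive, where edgeR called 2 lower, DESeq2 called 5, library totals without TMM 1, no filter on low counts 1, the 10 libraries of the comparison alone 0 and a lane term 0, and leaving out both Ag 3 and Naive 5 gave 13 higher and 4 lower. For Ag+Costim vs Naive, no filter gave 18 higher and 1 lower, and the lane term 0 and 1. The median log2 fold change there was 0.46 with library totals, which moved the median of all genes from -0.08 to -0.23, 0.79 with no filter and 0.84 without both libraries. Changed transcript usage in Ag+Costim vs Naive was called for 6 genes by limma and 2 with the 10 libraries alone. Within 1 lane the log2 ratios were -1.57 for Snrpn to Snrpb and -0.47 for Lsm1 to Lsm8 in Ag+Costim vs Naive, both with an exact permutation adjusted p of 0.190, since fewer libraries cannot pass the threshold. As a choice made after seeing the data, leaving out both libraries gave 1 gene below without overlap in Ag+Costim vs Ag, 1 above and 6 below in Ag vs Naive, and retained-intron shares lower without overlap for 2, 6 and 23 genes (Ag+Costim vs Ag, Ag vs Naive, Ag+Costim vs Naive).

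With the replicate number as a block, 5 genes were called lower in Ag vs Naive, 1 gene had changed transcript usage in Ag+Costim vs Naive, and Prpf38b in Ag+Costim vs Ag turned to 0.029. The labels do not say that equal numbers share an animal, and the deviations of same-numbered libraries correlated from -0.324 to 0.470, so the numbers were not read as pairs.

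Fold changes near 0 turned sign. With no filter these were Lsm11 (0.20), Prpf4b (0.15), Prpf38b (0.18) and Prpf39 (0.19) in Ag+Costim vs Ag, Sf3a1 (-0.026) and Prpf31 (-0.024) in Ag vs Naive, and Lsm11 (0.011) in Ag+Costim vs Naive. With a lane term they were Lsm11 (0.0028), Sf3b3 (0.0066), Prpf6 (0.0021), Prpf19 (0.091) and Sf3a2 (0.0010) in Ag vs Naive and Lsm10 (-0.067, and -0.065 within 1 lane) in Ag+Costim vs Naive. With library totals Prpf31 was -0.050 in Ag vs Naive, and Prpf6 -0.14 and Lsm10 -0.078 in Ag+Costim vs Naive, where Prpf6 was also -0.017 with DESeq2, -0.018 with RLE factors and -0.044 with the 10 libraries. Without both Ag 3 and Naive 5, Lsm11 was 0.012 in Ag+Costim vs Ag and Prpf19 0.036 in Ag vs Naive.

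With 1 library left out, genes called higher ranged from 0 to 12 in Ag+Costim vs Ag, 0 to 8 in Ag vs Naive (8 without Naive 5, 5 without Ag 4) and 10 to 33 in Ag+Costim vs Naive, and genes called lower from 0 to 1, 0 to 5 (0 without Naive 1 or Naive 4, 5 without Ag 4 or Naive 5) and 3 to 5. The median log2 fold change ranged from 0.12 to 0.52 in Ag+Costim vs Ag, from 0.10 to 0.36 in Ag vs Naive and from 0.57 to 0.77 in Ag+Costim vs Naive. In the same order, genes with changed usage ranged from 0 to 1, 0 to 1 and 0 to 2. The log2 ratio of Snrpn to Snrpb ranged from -0.56 to 0.083 in Ag+Costim vs Ag (0.083 without Ag 3) and from -1.501 to -0.86 in Ag vs Naive, that of Lsm1 to Lsm8 from -0.35 to -0.15 in Ag+Costim vs Ag, and that of Lsm14b to Lsm14a from -0.11 to 0.20 in Ag+Costim vs Ag and from -0.40 to 0.073 in Ag+Costim vs Naive. Ranges that crossed 0 in Ag+Costim vs Ag were -0.22 to 0.22 (Lsm11), -0.026 to 0.30 (Sf3b6), -0.25 to 0.029 (Prpf4b), -0.11 to 0.64 (Snrpn), -0.18 to 0.14 (Prpf38b), -0.19 to 0.090 (Prpf39) and -0.027 to 0.40 (Snrpe). In Ag vs Naive they were -0.31 to 0.029 (Snrpd3), -0.28 to 0.068 (Lsm11), -0.13 to 0.22 (Prpf31) and -0.16 to 0.12 (Prpf19), and in Ag+Costim vs Naive -0.048 to 0.11 (Prpf6) and -0.47 to 0.060 (Lsm14b). The low counts of Prpf40b, Snrpn and Lsm14b limit their precision.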
